A study of Mus musculus with 6 samples.

Results

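The genes described here are the subunits of the mouse proteasome and the factors that assemble it, measured in the left ventricle with and without Akt2. They were taken by symbol, as every gene beginning with Psma, Psmb, Psmc, Psmd, Psme or Psmg and a digit that a probe set of the array names alone. This gave 48 genes of the 18193 so named, with 99 probe sets, and each gene was read by its brightest probe set. Of the 48, 46 are proteasome genes. The other 2 share only the start of the symbol: Psmc3ip, a partner of the meiotic recombinases, and Psme3ip1, a protein that binds the activator Psme3. Both were kept because the rule takes them.

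The samples were left ventricles of male C57BL/6 mice aged 12 to 16 weeks, 3 from wild type mice and 3 from akt2-/- mice. The knockouts carry a targeted disruption of akt2 and had been backcrossed to C57BL/6 more than 7 times. Whole ventricle was used, so all cell types contribute, and fewer cells of a type cannot be told apart from less RNA per cell. Whether the 3 samples of a genotype are 3 animals is not stated in the labels, so a p-value here speaks of the spread among the arrays, which may be technical.

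The proteasome degrades proteins tagged with ubiquitin and is the main route by which cardiomyocytes clear short-lived and damaged proteins. Its 20S core is a barrel of alpha rings, which gate the entrance, around beta rings, which hold the catalytic sites. The 19S regulator sits on the end of the barrel, binds and deubiquitinates the substrate, and unfolds it with a ring of ATPases. Interferon-gamma induces 3 immune catalytic subunits, Psmb8, Psmb9 and Psmb10, which replace Psmb5, Psmb6 and Psmb7 in newly built cores and change the peptides available for MHC class I. When the proteasome is impaired, the transcription factor Nfe2l1 raises the genes of both particles together.

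The stretches before the annotated start are shown for 4 members: Psmb6 and its immune counterpart Psmb9, Psmb5, and the 19S ATPase Psmc6. They stand for the constitutive and immune genes whose values follow. Each is 250 bases from RefSeq on GRCm38.p6, written 5′ to 3′ on the gene's strand: Psmb5 at chr14:54617996-54618245 (minus), Psmb6 at chr11:70525107-70525356 (plus), Psmb9 at chr17:34187331-34187580 (minus) and Psmc6 at chr14:45329574-45329823 (plus). Capitals mark TGACNNNGC, the core of the antioxidant response element that Nfe2l1 and Nfe2l2 bind, and in Psmc6 also CCGGAAG, a core of ETS factor sites.
Psmb5: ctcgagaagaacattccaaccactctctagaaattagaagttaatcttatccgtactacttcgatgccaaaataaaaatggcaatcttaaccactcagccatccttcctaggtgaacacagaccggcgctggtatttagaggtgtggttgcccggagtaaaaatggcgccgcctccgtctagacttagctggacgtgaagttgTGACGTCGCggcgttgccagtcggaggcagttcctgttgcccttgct
Psmb6: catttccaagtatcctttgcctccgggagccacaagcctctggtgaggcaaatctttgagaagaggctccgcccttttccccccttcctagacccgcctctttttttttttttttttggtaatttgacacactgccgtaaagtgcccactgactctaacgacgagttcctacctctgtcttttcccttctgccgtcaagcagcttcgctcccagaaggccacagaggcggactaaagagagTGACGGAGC
Psmb9: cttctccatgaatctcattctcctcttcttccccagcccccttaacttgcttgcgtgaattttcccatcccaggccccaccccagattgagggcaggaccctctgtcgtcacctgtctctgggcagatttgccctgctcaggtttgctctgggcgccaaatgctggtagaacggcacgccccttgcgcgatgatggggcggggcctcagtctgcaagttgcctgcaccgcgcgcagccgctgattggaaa
Psmc6: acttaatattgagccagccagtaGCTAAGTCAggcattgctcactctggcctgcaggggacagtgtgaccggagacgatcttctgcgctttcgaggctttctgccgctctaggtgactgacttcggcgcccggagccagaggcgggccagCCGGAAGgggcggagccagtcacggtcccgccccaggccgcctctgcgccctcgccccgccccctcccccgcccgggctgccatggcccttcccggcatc
A window was given for 40 members, 43 windows in all, and 8 members have none here. TGACNNNGC was found on either strand before 5 genes, Psmb5, Psmb6, Psmc6, Psmd9 and Psmd12. That is 11.6% of the members' windows, against 10.2% of all 32851 windows of this length. GAAANNGAA, the core of the interferon-stimulated response element, stood before Psmb3, Psmd4 and Psmd9, in 6.98% of windows against 7.13%. It was not in the Psmb9 window. CCGGAAG was in 14 windows of 13 genes, or 32.6%, against 6.91% of all windows and 8.98% of those before protein-coding genes. Psmb9 and Tap1, which carries peptides for MHC class I, start 226 bases apart on chromosome 17 and face away from each other, so they share this stretch. The motifs were chosen with these windows in view, a match is a description of letters, and the motifs do not overlap in the stretches shown.

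The values are MAS5 signals from 1 array per sample, and differences are on the scale log2(signal + 21.7). The median signal was 88.6 to 91.4 on 4 arrays but 167.3 and 134.4 on wild type 1 and knockout 1. These replicate 1 arrays also had 18S ribosomal RNA controls at 82330 and 57275, against 152.7 to 446.7, and poly-A spike-in controls at 51.0 and 83.0, against 628.6 to 1015.2. Akt2 had signals of 2362.6, 2561.3 and 2505.4 in wild type and 477.8, 394.5 and 255.4 in knockout, as labelled (log2 -2.69, SE 0.240). Even so, its limma adjusted p was 0.0638, and 0.0963 with the replicate 1 arrays as a term, so a count of 0 at the threshold of 0.05 says little about smaller changes. All 8 markers of ventricular cardiomyocytes were above the filter on low signals, with summed signals of 351635 to 1093600 in wild type and 425376 to 669641 in knockout.

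No proteasome gene passed the test between the genotypes. Of the 48 genes, 46 had a mean signal above the filter and were tested, 44 of them proteasome genes. In limma, 0 of these 46 had an adjusted p under 0.05, as did 0% of all 11075 genes tested. At an unadjusted p under 0.05 there were also 0 of 46, against 2.17% of all genes, and the lowest was 0.316 for Psmc3. With the replicate number as a block in limma there were 0 of 46, against 5.99% of all genes. With the replicate 1 arrays as a term there were 0 of 46 again, against 8.32%, and the lowest adjusted p was 0.679.

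The differences were small for nearly every member. They ran from -0.19 in Psmd4 to 0.35 in Psmc4, and 45 of 46 lay within 0.2 on the log2 scale. The median size without sign was 0.0854, against 0.133 over all genes and 0.0921 over the 2666 genes at least as bright as the members' lower quartile. The signed median was -0.03 against 0.01 over all genes, with 18 members higher and 28 lower in the knockout. The share higher was 39.1%, against 53.3% of all genes. Scaling arrays to a common median shifts the difference of every gene by the same amount, here 0.09, and brought the median of all genes to 0.11. After it 34 members were higher, and the share of all genes higher is not given here. The median of the non-immune members lay 0.05 below that of all genes before and after, a gap that such a shift cannot change. Leaving out knockout 1 gave 26 higher, and leaving out knockout 3 gave 12.

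The intervals give, for the 1 probe set read per gene, the differences that the spread among the arrays leaves possible. They do not cover a gene's other probe sets, such as those of Psmd11 and Psme4 at -0.91 and 0.93 described below. The 95% interval of the difference, from limma, lay within 1.5-fold in either direction for 31 of 46 members, against 29.3% of all genes, and within 2-fold for 43. With the replicate 1 arrays as a term it lay within 1.5-fold for 45 members, against 64.3% of all genes. Psmc4 was the exception, at -0.46 to 1.17. These shares of all genes are not matched for brightness, as only 2666 of 11075 genes were at least as bright as the members' lower quartile. Whether the members' intervals are narrow for their brightness was not tested.

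**Figure D1:**
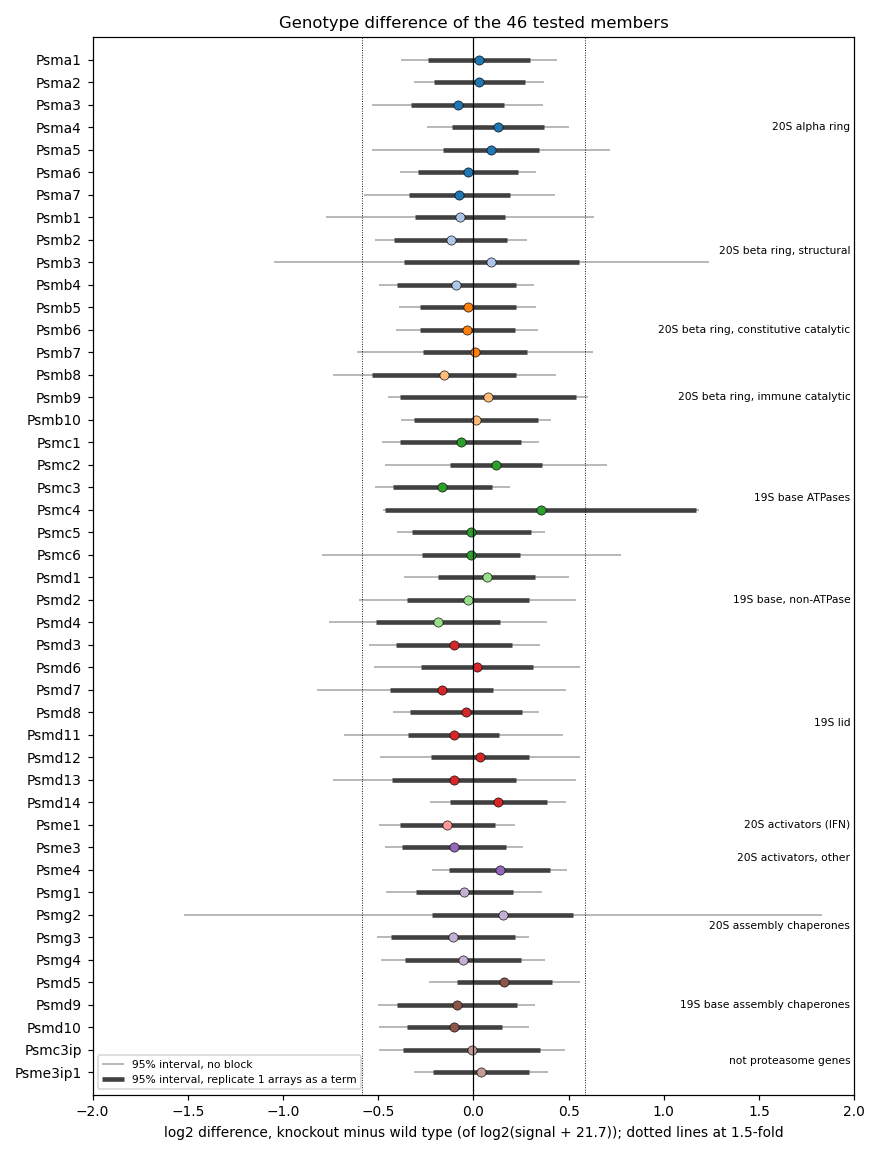
The horizontal axis is the log2 difference, knockout minus wild type, of each of the 46 tested members, with its 95% interval from limma as a thin line, that with the replicate 1 arrays as a term as a thick line, and dotted lines at 1.5-fold. Nearly every point lies within 0.2 of 0, every interval crosses 0, and the thin line of Psmg2 is the widest.

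The constitutive catalytic subunits had differences of 0.03 or less in size on the log2 scale. Psmb5, the chymotrypsin-like site, had signals of 6389.9, 6333.0 and 6850.1 in wild type and 5913.6, 6707.8 and 6565.3 in knockout (log2 -0.03, SE 0.151). Psmb6, the caspase-like site, had 8291.9, 6891.5 and 7222.3 against 7581.2, 7031.0 and 7250.0 (log2 -0.03, SE 0.157). In both genes the groups overlapped. Psmb7, the trypsin-like site, had 18678.1, 26201.2 and 28726.5 against 18153.4, 26422.8 and 29844.3 (log2 0.01, SE 0.261). Its low value in each group was the replicate 1 array.

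The immune catalytic subunits gave signals well above the filter in all 6 ventricles and overlapped between genotypes. Psmb8, the counterpart of Psmb5, had 718.9, 810.9 and 991.1 in wild type and 553.3, 772.0 and 972.9 in knockout (log2 -0.15, SE 0.247, 95% interval -0.74 to 0.43). Psmb9, the counterpart of Psmb6, had 555.1, 440.1 and 561.9 against 629.5, 412.7 and 625.2 (log2 0.08, SE 0.221). In Psmb9 knockout 2 was the lowest array and knockouts 1 and 3 the highest. Psmb10, the counterpart of Psmb7, had 1922.6, 1655.8 and 1648.8 against 1562.1, 1846.3 and 1877.4 (log2 0.01, SE 0.166).

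Taken within each array, the immune subunit relative to its constitutive counterpart did not separate the genotypes. The knockout minus wild type difference of that log2 ratio was -0.13 for Psmb8 over Psmb5, 0.11 for Psmb9 over Psmb6 and 0.01 for Psmb10 over Psmb7. Exact two-sided permutation tests gave p = 0.7, 0.7 and 1, where 3 arrays against 3 can reach no lower than 0.1. The median of the 3 immune subunits was 0.01 and that of the 42 non-immune members, all other tested genes but Psmc3ip, was -0.03. In the replicate 1 pair these medians were -0.30 and -0.06, and in replicates 2 and 3 they were 0.03 and -0.01.

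Leukocytes carry immune proteasomes, and their markers were at these levels. All 12 tested macrophage and monocyte markers were lower in the knockout by value, with a median of -0.20 and summed signals of 15826 to 32082 against 21141 to 33083 in wild type, and 0 had an unadjusted limma p under 0.05. Markers of all leukocytes were lower by value in 6 of 6, with a median of -0.20 and sums of 1981 to 3512 against 2710 to 3953, and 1 of them, Spi1, had an unadjusted limma p of 0.00422 (limma adjusted p = 1.00). Among all genes, 2.17% had an unadjusted limma p under 0.05, and 53.3% were higher by value in the knockout. At an adjusted limma p under 0.05, 7 macrophage and 3 leukocyte markers differed between the replicate 1 arrays and the others. The same held for 34.0% of all genes. Of the 11 T, NK and B cell markers, 10 had a probe set of their own. None of these was above the filter, and their sums were 462 to 655 against 303 to 813. With the replicate 1 arrays as a term, 1 macrophage and 2 leukocyte markers had an unadjusted limma p under 0.05. The share of all genes in that fit was 8.32%. Markers of endothelial cells were also lower by value, in 7 of 7 genes with a median of -0.19. The groups were apart in 3 of them, and 3.56% of all genes were apart on that side. Of the 8 markers of ventricular cardiomyocytes, 6 were lower and 2 higher by value, with a median of -0.09. Their median was -0.66 for knockout 1 against wild type 1, but 0.17 when those arrays were left out. Fibroblast markers were not lower as a set, with 5 higher and 2 lower by value and a median of 0.05. The groups were apart in 1 of these, on the higher side, where the share of all genes was 3.9%. The part of any of these cell types in the immune subunits' signal was not tested.

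**Figure D2:**
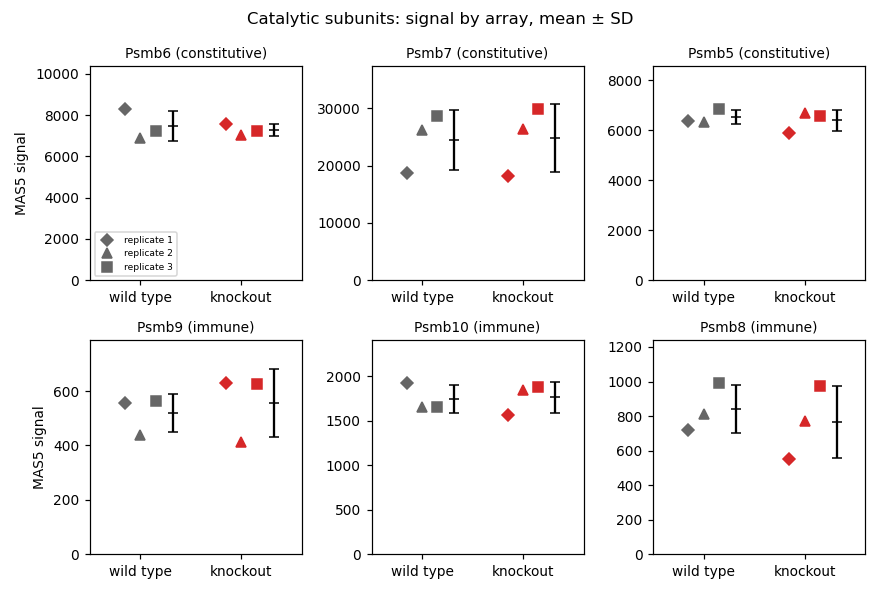
Each panel plots the MAS5 signal of 1 catalytic subunit by array, on an axis that starts at 0, with the group mean and SD (n = 3). In each of the 6 panels the wild type and knockout points overlap, and in Psmb7 the replicate 1 arrays lie below the others in both genotypes.

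The alpha ring showed 4 of its 7 tested genes higher and 3 lower, with a median of 0.03. Psma4 was the largest of these, with 6915.6, 6219.7 and 6174.0 in wild type and 7669.1, 6523.1 and 6959.8 in knockout (log2 0.13). Its groups overlapped, since wild type 1 stood above knockout 2. Psma2 was the steadiest, at 6181.4, 6084.2 and 6352.2 against 6385.1, 6357.9 and 6259.7. The 4 structural beta genes, Psmb1 to Psmb4, had a median of -0.08, and Psmb2 had 5644.4, 4720.8 and 4898.6 against 4876.7, 4145.4 and 5039.8 (log2 -0.12).

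The tissue-specific core subunits stayed below the filter and were not tested. Psma8, the alpha subunit of male germ cells, had signals of 12.0, 49.7 and 46.4 in wild type and 27.4, 38.7 and 62.5 in knockout. Psmb11, the catalytic subunit of thymic cortical epithelium, had 13.0, 7.5 and 41.9 against 15.4, 2.5 and 57.2.

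In the 19S base, 2 of the 6 ATPase genes were higher and 4 lower, with a median of -0.01. Psmc3 was 1 of only 2 members with every knockout array below every wild type array, as were 3.56% of all genes. Its signals were 8432.5, 7326.4 and 7658.2 in wild type and 6873.1, 6875.2 and 7132.0 in knockout (log2 -0.16, SE 0.150, 95% interval -0.52 to 0.19). Psmc4 had the largest difference of all members, with 2069.0, 2312.2 and 2505.9 against 4489.1, 1695.0 and 3302.6 (log2 0.35, SE 0.350). Knockout 1 was far above the rest and knockout 2 below all of them. The other Psmc4 probe set did not repeat this, with 2535.4, 1586.8 and 1841.6 against 2141.9, 1603.2 and 1887.1 (log2 -0.06). Psmd4, a ubiquitin receptor of the base, had 6164.9, 3671.3 and 3808.8 against 4367.4, 3592.2 and 3711.4 (log2 -0.19), and its difference lay mainly in wild type 1. The other tested Psmd4 probe set did not repeat this, with 2768.1, 3610.8 and 4434.4 against 3004.4, 3782.8 and 3657.7 (log2 -0.03).

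In the 19S lid, 3 of 8 genes were higher and 5 lower, with a median of -0.07. Psmd14, the deubiquitinase that removes the ubiquitin chain, was the 1 member with every knockout array above every wild type array, as were 3.9% of all genes. Its signals were 3660.5, 3364.2 and 3650.4 in wild type and 4121.4, 3661.4 and 3918.1 in knockout (log2 0.13, SE 0.151). The gap between knockout 2 and wild type 1 was under 1 signal unit. Together the members without overlap came to 6.52%.

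Among the activators, Psme1, the interferon-inducible alpha subunit of the 11S cap, was the second member without overlap on the lower side. It had 10123.6, 10317.3 and 11340.4 in wild type and 9201.2, 9697.0 and 9968.4 in knockout (log2 -0.14, SE 0.150). Its partner Psme2, its neighbour on chromosome 14, is read only by a probe set shared with Psme2b and is outside the rule. That probe set had 3854.8, 4006.4 and 4309.1 against 4513.8, 3454.9 and 3701.0 (log2 -0.07, SE 0.183), and its groups overlapped. Psme3, the nuclear activator, had 1643.8, 1483.6 and 1503.1 against 1429.7, 1342.8 and 1540.8 (log2 -0.10). Psme4, an activator of acetylated histone breakdown, had 11680.4, 11339.5 and 12207.7 against 13393.8, 11982.6 and 13418.9 (log2 0.14), with knockout 2 inside the wild type range.

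The groups overlapped in every assembly chaperone. Psmg1 and Psmg2, which pair to start the alpha ring, had log2 differences of -0.05 and 0.15, and Psmg3 and Psmg4, the second chaperone pair, had -0.11 and -0.06. Psmg2 had the widest spread of any member: 697.2, 3257.1 and 3269.1 in wild type against 1025.3, 3289.7 and 3063.0 in knockout (SE 0.706). Its replicate 1 arrays were low in both genotypes and the other 4 nearly equal. Of the chaperones of the 19S base, Psmd5 had 843.1, 1053.6 and 1006.6 against 996.0, 1093.5 and 1159.0 (log2 0.16, SE 0.167). Psmd9 and Psmd10 had -0.09 and -0.10.

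The replicate 1 arrays differed from the other 4 in more members than the genotypes did. In limma with genotype in the fit, 15 of 46 had an adjusted p under 0.05. Of these, 6 were higher in the replicate 1 arrays, or 13.0%, against 18.9% of all genes, and 9 were lower, or 19.6%, against 15.1%. The higher ones were Psmb3 (log2 1.21), Psmd7 (0.64), Psmd13 (0.59), Psmc2 (0.56), Psmd4 (0.49) and Psmd2 (0.49). The lower ones were Psmg2 (-1.90), Psmc6 (-0.82), Psmb1 (-0.72), Psma5 (-0.60), Psmb7 (-0.59), Psmd11 (-0.54), Psmd6 (-0.46), Psmd12 (-0.46) and Psma7 (-0.41). Both sides thus held core and 19S genes. With arrays scaled to a common median, 37 members passed, 1 higher and 36 lower, while the median of all genes moved from 0.06 to -0.56 and 56.8% of all genes passed. The count was 5 without wild type 1, 6 without wild type 2 and 6 without wild type 3, where the share of all genes passing also fell, from 34.0% to 13.1%, 14.4% and 15.6%. It was 13, 10 and 10 without knockouts 1, 2 and 3, against 39.2%, 19.1% and 23.8% of all genes. None of the immune subunits was among the 15, and Psmb8 came nearest at -0.47 (limma adjusted p = 0.0710).

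The size of this difference exceeded that of the genotype in 37 of 46 members, with a median of 0.238 without sign, against 0.380 over all genes. The genotype medians without sign were 0.0854 and 0.133, so a larger replicate 1 difference was not particular to the members. Psmb3, a structural beta subunit, shows the replicate 1 difference. Its signals were 10734.2, 3308.8 and 3820.6 in wild type and 8074.1, 4278.9 and 4792.9 in knockout. In the replicate 1 pair the members' genotype differences ran from -0.50 to 1.11, with a median of -0.06, and in replicates 2 and 3 from -0.20 to 0.35, with a median of -0.0006. The sign was opposite between these in 27 of 46 members. The shares of all genes that go with the counts of 37 and 27 are not given here, so neither count marks the members out.

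**Figure D3:**
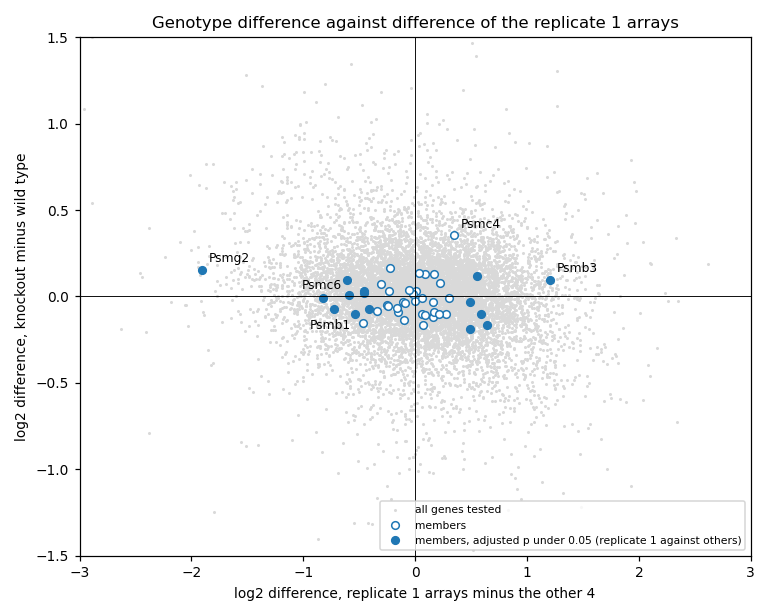
The horizontal axis is the log2 difference of the replicate 1 arrays from the other 4 and the vertical axis the log2 difference of knockout from wild type, both from limma, with all genes in grey and the members coloured (11 genes lie beyond the axes). The members spread from -1.90 to 1.21 along the horizontal axis but stay between -0.19 and 0.35 on the vertical one.

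Different probe sets of 1 gene did not always repeat the replicate 1 difference. Of the 15 members, 11 had other tested probe sets, 17 in all. For 10 of these the sign was the same, and 5 also passed in limma, in Psma5, Psmc6, Psmd13 and Psmg2. For 7 it was opposite, and 0 of those passed. Psmd4, for example, had 0.49 by its brightest probe set and -0.42 by another. Psmd11 had -0.54 by its brightest and 0.27, 0.13, 0.02 and 0.10 by its other tested ones. Probe sets of members outside the 15 were not counted here. Some that are not the brightest of their gene passed in limma, in Psme3, Psme4 and Psmd9.

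Across all 77 tested probe sets of the members, 2 had an unadjusted limma p under 0.05 for genotype, or 2.60%, against 2.01% of all probe sets. Both were chosen for description after their values were seen. Psmd11, a lid subunit, had 158.9, 137.0 and 136.1 in wild type and 66.8, 61.3 and 71.8 in knockout on its dimmest tested probe set (log2 -0.91, SE 0.168, limma adjusted p = 1.00). Its other 4 tested probe sets, all brighter, had -0.10, 0.18, 0.09 and -0.14. Psme4 had 73.9, 64.9 and 66.3 against 199.2, 155.4 and 107.3 on 1 of its dim probe sets (log2 0.93, SE 0.235, limma adjusted p = 1.00). Its other 5 had 0.14, 0.07, 0.08, 0.24 and 0.12. The groups were apart on each of these dim probe sets and overlapped on the brightest probe set of the same gene. The sources used here do not say which part of the transcript each one reads. Over the 31 tested probe sets besides the brightest, in 20 genes, 21 were within 0.2.

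**Figure D4:**
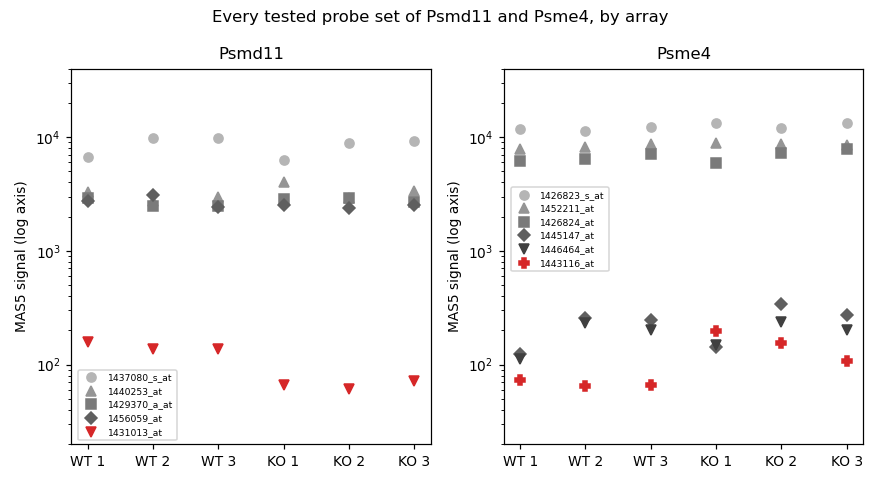
Each panel plots the MAS5 signal, on a log axis, of every tested probe set of Psmd11 or Psme4 on each array, with 1 probe set in red. The red probe set is low in the knockout for Psmd11 and high for Psme4, while on the brightest probe set of each gene the genotypes overlap.

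Genes that work with the proteasome showed no genotype difference past the threshold either. Over 5 lists of 58 genes, 46 were tested, with 0 at an adjusted and 0 at an unadjusted limma p under 0.05. The shares of all genes were 0% and 2.17%. Proteasome partners outside the rule were higher by value in 8 of 8, against 53.3% of all genes, with a median of 0.09. They included Ube3c (log2 0.22), a ligase bound to the proteasome, Sem1 (0.16), a small lid subunit, and Pomp (0.00), the chaperone of core maturation. Akirin2, of the same list, had 0.16. Pomp had 7811.1, 6980.9 and 7077.8 in wild type and 7250.5, 7114.9 and 7488.4 in knockout. It counts as higher on the log2 scale alone, at 0.0004, as its mean signal was 7289.9 in wild type and 7284.6 in knockout.

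The regulators of proteasome genes had a median of 0.08 over 8 tested genes. Nfe2l1 had 4180.9, 2913.2 and 2834.3 in wild type and 2964.6, 3960.7 and 3748.9 in knockout (log2 0.12). Its knockout arrays were lower in the replicate 1 pair and higher in the others. Nfe2l2, the related factor of the oxidative stress response, had 0.16, and its inhibitor Keap1 had 0.12. Maff, a small partner of these factors, had -0.56. The 6 tested genes of ubiquitin, its activation and its shuttles had a median of 0.01, with Uba6, a ubiquitin-activating enzyme, at -0.41 and Sqstm1, a carrier to autophagy, at -0.17. Ubqln1, of the same list, had 0.09.

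The interferon-linked genes around the immune subunits had medians near 0. MHC class I processing genes had 0.00 over 11 genes and interferon response genes 0.05 over 13. Tap1, the neighbour of Psmb9, had 311.3, 216.4 and 273.7 in wild type and 169.7, 188.2 and 284.9 in knockout (log2 -0.31), and its groups overlapped. Nlrc5, the activator of MHC class I genes, had 0.31 and Canx, of the same list, had -0.15. Of the interferon response genes, Irf8, Ifit3 and Irf7 had -0.35, -0.28 and -0.26. With the replicate 1 arrays as a term, Maff and Nlrc5 had unadjusted limma p under 0.05, with an adjusted p of 0.586 for both. In that fit 8.32% of all genes had an unadjusted p under 0.05.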

How the data were processed

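Left ventricle RNA of 3 wild type and 3 akt2-/- samples was hybridised to 1 Affymetrix mouse array each. The deposited values are intensities, linear MAS5 signals of 45101 probe sets, per the submitters' processing notes. The sources used here give no MAS5 version or settings. A single factor per array had been applied, since the trimmed mean signal was 500.0 on each array. Scanner files and detection calls were not used here. The number of arrays limits the precision.

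From these, log2(signal + 21.7) was computed, 21.7 being the 20th percentile of all values, so folds of dim genes are understated. Apart from 64 controls, which were not tested, 22519 reached the median of the mean log2 values, 6.87, and entered lmFit and eBayes of limma 3.58.1 (R 4.3.3), with genotype as the only term and Benjamini-Hochberg adjustment. The gene-level fit took the brightest of each gene's probe sets naming 1 symbol, 11075 genes. Of all probe sets, 34945 have 1 symbol in the platform annotation, 932 several and 9160 none. The scripts were tested on simulated data.

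After each genotype was centred on its mean, same-numbered arrays had correlations over the genes tested of 0.61, 0.48 and 0.38 for numbers 1 to 3. Those of unlike numbers 2 and 3 were 0.41 and 0.36, so the value for number 3 lay between them. Centring groups of 3 passes the replicate 1 difference to numbers 2 and 3, so their correlations cannot show whether the numbers mark pairs. The labels give the numbers but not what they stand for.

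By rule, values are given for the catalytic, activator and chaperone genes, the 5 members of lowest unadjusted p on each side, those whose groups do not overlap and those under the filter. In the wider lists the rule takes Pomp, Nfe2l1, Nfe2l2, Tap1 and up to 3 genes a list by lowest p. Other genes named were chosen after their values were seen. The members, lists and alternatives were chosen with earlier results of these data known. The alternatives changed the pseudocount, the filter, the scaling or the variance estimate, or used the mean of a gene's probe sets, probe sets without cross-hybridising types, the replicate block, the replicate 1 arrays as a term, replicates 2 and 3 alone, and each array left out. Promoter windows came from RefSeq on GRCm38.p6, and all 48 symbols matched its gene table.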

Additional observations from a re-analysis of the deposited data

How the results depend on the processing

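Over all settings run, no member passed an adjusted p under 0.05 for genotype in limma. Among all genes, 0 passed as planned, 1 with a pseudocount of 100, 1 with the filter at the 75th percentile, 1 with a trended robust variance, 1 with the replicate 1 arrays as a term and 5 with that term and the robust variance together. At an unadjusted p under 0.05 the members' count of 0 became 1 in replicates 2 and 3 alone (Psmb3, log2 0.35, unadjusted p = 0.0469, limma adjusted p = 0.503). It ranged from 0 to 1 with each array left out, the 1 being Psmc4 without knockout 2 (log2 0.75). The share of all genes at that level in these fits is not given here, so a count of 1 cannot be set against it. With the replicate block the members' count stayed 0, while that of all genes rose from 240 to 663. The median of the 42 non-immune members, -0.03, became 0.062 with arrays scaled to a common median and ran from -0.081 to 0.020 with each array left out. That of the immune subunits, 0.01, became 0.11 with that scaling and ran from -0.03 to 0.09 with each array left out. The 15 members differing between the replicate 1 arrays and the others became 6 without the filter, 37 with median scaling and 5 to 13 with each array left out. The share of all genes differing went from 34.0% to 12.1%, 56.8% and 13.1% to 39.2%. Of 417 alternative values of the named members, 36 had the opposite sign to the planned value and 0 had an adjusted p under 0.05. Groups of 3 arrays, and a difference between the replicate 1 arrays and the rest that stays in the error of the planned fit, limit what could be detected. Psma8 and Psmb11 were too dim to test.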
